A study of Rattus norvegicus with 56 samples.

Results

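The microglia and complement genes described here were Aif1, Itgam, Cx3cr1, Csf1r, Tyrobp, Cd68, C1qa, C1qb, C1qc and C3. All probe sets whose only gene symbol in the array annotation is one of these 10 genes were taken, which gave 11 of the 31099 probe sets on the array: 2 for Aif1 and 1 for each other gene. Of these 11 probe sets, 8 had a mean log2 signal above the filter of 4.99 used for testing, which 18625 probe sets passed. The signals of Itgam, Cd68 and the second Aif1 probe set were below it, so small differences in them carry more noise. Beyond 1 array, that of rat 2, the genes differed little between groups, and none passed the test in any drug or lesion comparison.

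Microglia are the resident macrophages of the brain. Csf1r is the receptor for the growth factors Csf1 and Il34, on which microglia depend for survival, and Cx3cr1 is the receptor for the neuronal chemokine Cx3cl1. Tyrobp is the signalling adapter of Trem2, and Itgam is the alpha chain of complement receptor 3, which binds fragments of C3. Aif1 encodes Iba1, a calcium-binding protein used to stain microglia, and Cd68 is a lysosomal protein of phagocytes. C1qa, C1qb and C1qc encode the chains of C1q, which starts the classical complement pathway, and C3 is the protein on which the complement pathways converge. In the brain, C1q and C3 also tag synapses and debris for uptake by microglia.

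The data are expression arrays of the dorsal striatum of 56 male rats (Crl:OFA, Sprague Dawley; the age is not given), 1 array per rat and 7 rats in each of 8 groups. Lesioned rats had a loss of nigral neurons on both sides after an adeno-associated virus (AAV) made them overexpress alpha-synuclein, and sham rats received the same AAV vector carrying GFP, so every rat had a vector injection. Starting 5 weeks later, each rat was injected daily under the skin for 3 weeks with L-dopa methyl ester (50 mg/kg) plus benserazide, or with saline. Place conditioning with the D2/D3 dopamine agonist pramipexole (2 mg/kg) or with saline followed, and the rats were killed 24 or 48 hours after their last injection of it. The groups carry the names Lesion L-dopa ppx, Lesion L-dopa saline, Lesion saline ppx, Lesion saline saline, Sham L-dopa ppx, Sham L-dopa saline, Sham saline ppx and Sham saline saline, in which ppx is pramipexole and the last word is the conditioning drug. The number of arrays limits the precision, and the depth of the viral lesion in each rat is not given in the labels. In bulk tissue, more cells of a type and more RNA per cell cannot be told apart.

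Rats are called by the number in their title. The arrays numbered 1 to 37 and those numbered 38 to 56 differed in signals outside this family, a split seen in the values and not stated in the labels. Without rat 2, the members' mean signals were also somewhat higher in arrays 38 to 56. Itgam was 4.69 ± 0.54 (SD) in arrays 1 to 37 and 4.98 ± 0.38 in arrays 38 to 56. C1qb was 7.35 ± 0.20 and 7.50 ± 0.31, and Tyrobp 6.32 ± 0.26 and 6.33 ± 0.31. All 28 lesioned rats and the 7 Sham L-dopa ppx rats were in the first set, the Sham saline ppx and Sham saline saline rats were all in the second, and the Sham L-dopa saline rats were divided into 2 in the first and 5 in the second. Lesioned and sham rats without L-dopa were therefore in different sets, and lesion and set cannot be told apart there. Rat 2 (Lesion L-dopa ppx) stood apart from every other array: its median correlation with the other arrays was 0.940, the lowest of 56, against 0.948 to 0.954 for the other 55. Its median signal was 5.78, against 5.62 to 5.82, and the 3′ minus 5′ signal of the control genes, a measure of RNA integrity, was 0.936, against 0.631 to 1.24. Both lay within the range of the other arrays. The labels give no reason to leave it out, so each result is given with and without rat 2.

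The upstream sequences of 7 members were found in RefSeq (GRCr8); none was used for Aif1, Tyrobp and C1qc. C1qa, C1qb and C1qc neighbour each other on chromosome 5. The windows of the 5 members shown run from 250 bases before to 50 bases after the annotated start site, 5′ to 3′ on the gene's strand. They are printed because C1qa, C1qb, C3 and Cd68 were among the members that differed most between rat 2 and its group and Cx3cr1 differed least. Capitals mark matches, on either strand, to 4 motifs of factors known in macrophages: the PU.1 core GAGGAA, the ETS core GGAAGT, the C/EBP motif TTGCNNAA and the STAT motif TTCNNNGAA (GAS).
C1qa, chr5:154419884-154420183, minus strand: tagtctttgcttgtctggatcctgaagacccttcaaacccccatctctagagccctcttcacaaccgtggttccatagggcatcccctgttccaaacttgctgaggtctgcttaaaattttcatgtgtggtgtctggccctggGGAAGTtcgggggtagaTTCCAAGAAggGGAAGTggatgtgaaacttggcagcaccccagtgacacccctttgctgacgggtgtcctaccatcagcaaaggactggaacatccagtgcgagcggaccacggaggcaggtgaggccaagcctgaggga
C1qb, chr5:154407778-154408077, minus strand: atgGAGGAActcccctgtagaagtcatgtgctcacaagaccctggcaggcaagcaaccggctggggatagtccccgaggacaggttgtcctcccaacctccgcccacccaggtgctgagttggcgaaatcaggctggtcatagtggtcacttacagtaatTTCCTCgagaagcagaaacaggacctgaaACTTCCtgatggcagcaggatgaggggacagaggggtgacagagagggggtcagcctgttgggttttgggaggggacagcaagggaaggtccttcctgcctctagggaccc
C3, chr9:2201290-2201589, minus strand: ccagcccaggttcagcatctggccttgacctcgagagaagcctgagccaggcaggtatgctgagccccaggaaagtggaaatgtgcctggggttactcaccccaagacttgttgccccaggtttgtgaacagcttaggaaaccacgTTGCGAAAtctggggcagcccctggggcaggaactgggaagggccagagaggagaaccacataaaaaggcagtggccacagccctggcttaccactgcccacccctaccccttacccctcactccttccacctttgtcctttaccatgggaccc
Cd68, chr10:54882392-54882691, minus strand: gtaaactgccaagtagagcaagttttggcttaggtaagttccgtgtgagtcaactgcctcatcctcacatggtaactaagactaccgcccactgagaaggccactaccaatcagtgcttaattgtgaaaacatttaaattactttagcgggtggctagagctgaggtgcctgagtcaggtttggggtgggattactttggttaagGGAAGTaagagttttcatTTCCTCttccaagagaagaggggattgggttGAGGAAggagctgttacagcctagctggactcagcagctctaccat
Cx3cr1, chr8:128677017-128677316, minus strand: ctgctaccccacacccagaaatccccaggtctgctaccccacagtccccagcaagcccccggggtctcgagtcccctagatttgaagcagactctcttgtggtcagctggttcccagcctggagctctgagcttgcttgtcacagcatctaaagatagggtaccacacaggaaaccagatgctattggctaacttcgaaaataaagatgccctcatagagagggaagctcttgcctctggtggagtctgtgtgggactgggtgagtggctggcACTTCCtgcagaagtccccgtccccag

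In C1qa, the capitals are 2 ETS cores and, between them, 1 GAS motif. In C1qb they are 2 PU.1 cores and 1 ETS core, and in Cd68 likewise 2 PU.1 cores and 1 ETS core. In C3 they are a single C/EBP match at -104 to -97 from the start site, and in Cx3cr1 a single ETS core at 23 to 28 after it. No 2 matches overlapped. The PU.1 core was in 4 of the 7 members' windows and in 27.6% of all 33465 rat promoter windows, and the ETS core in 4 of 7 and 22.6%. The C/EBP motif was in 2 of 7 and 10.6%, and the GAS motif in 2 of 7 and 8.87%. Such short motifs occur widely, and a match is a description of the letters only.

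Rat 2 had the highest signal of all 56 arrays in 10 of the 11 probe sets, and each of these 10 was more than 1 log2 unit above the mean of the other 6 Lesion L-dopa ppx rats. Both held for all 8 tested members. Over the 18625 tested probe sets, rat 2 was the highest of 56 in 6.43% and more than 1 unit above its group in 1.78%. The median difference between rat 2 and its group was 3.40 over the 11 member probe sets and -0.033 over all those tested. Rat 2 was singled out with earlier results known, so these differences are given as a description with no test.

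Among the members, C3 differed most. Its log2 signal was 11.51 in rat 2, and in the other 6 rats of the group the lowest, median and highest were 5.94, 6.71 and 7.08 (mean 6.62 ± 0.43, SD, n = 6). Rat 2 was thus 4.90 log2 units, or 29.8-fold, above the mean, with no overlap with the other 55 arrays, whose highest was 7.42. Of the 18625 tested probe sets, C3 stood in place 4 by its excess in rat 2.

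C1qc, the C chain of C1q, had a log2 signal of 10.50 in rat 2, against 6.30, 6.68 and 6.96 (lowest, median and highest) in the other 6 rats, a difference of 3.86 or 14.5-fold. C1qb was at 10.88 in rat 2, against 7.16, 7.38 and 7.63, which was 3.48 units or 11.2-fold above the mean of 7.40 ± 0.16 (n = 6). C1qa was at 12.20 in rat 2, against 8.49, 8.77 and 9.18, which was 3.40 units or 10.6-fold above. The C1q genes were thus between 10.6- and 14.5-fold higher in rat 2, and in each of them the other 6 rats lay within a range of less than 1 unit.

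The phagocyte lysosome gene Cd68 was at 8.81 in rat 2, against 3.81, 4.68 and 4.97 in the other 6 rats. The difference was 4.30 units (19.6-fold) as deposited and 3.57 with 16 added to the unlogged signal, because the other rats' signals were below the filter. Tyrobp was at 9.72 in rat 2, against 5.98, 6.38 and 6.66, a difference of 3.40 units or 10.6-fold. Both genes separated rat 2 from all other arrays.

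Aif1 was at 10.80 in rat 2 in its first probe set, against 7.34, 7.77 and 7.88 in the other 6 rats, a difference of 3.10 units or 8.60-fold. Its second probe set stayed flat: 4.85 in rat 2, against 2.68, 4.19 and 4.98, and rat 2 ranked 16 of 56. The second probe set was dim and had an SD of 0.81 among the 6 rats, so the probe sets of Aif1 disagreed on rat 2.

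The receptors differed less. Csf1r was at 10.00 in rat 2, against 7.48, 7.67 and 7.86 in the other 6 rats, a difference of 2.34 units or 5.06-fold. Itgam was at 6.81 in rat 2, against 4.34, 4.79 and 5.11, a difference of 2.02 units (4.06-fold) that was 1.55 with 16 added to the unlogged signal. Cx3cr1 was at 6.91 in rat 2, against 5.08, 5.36 and 5.78, and its difference of 1.52 units or 2.86-fold was the smallest of the 10 probe sets. The 6 other rats stayed below rat 2 in all 3 receptors, as did all 55 other arrays.

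**Figure D1:**
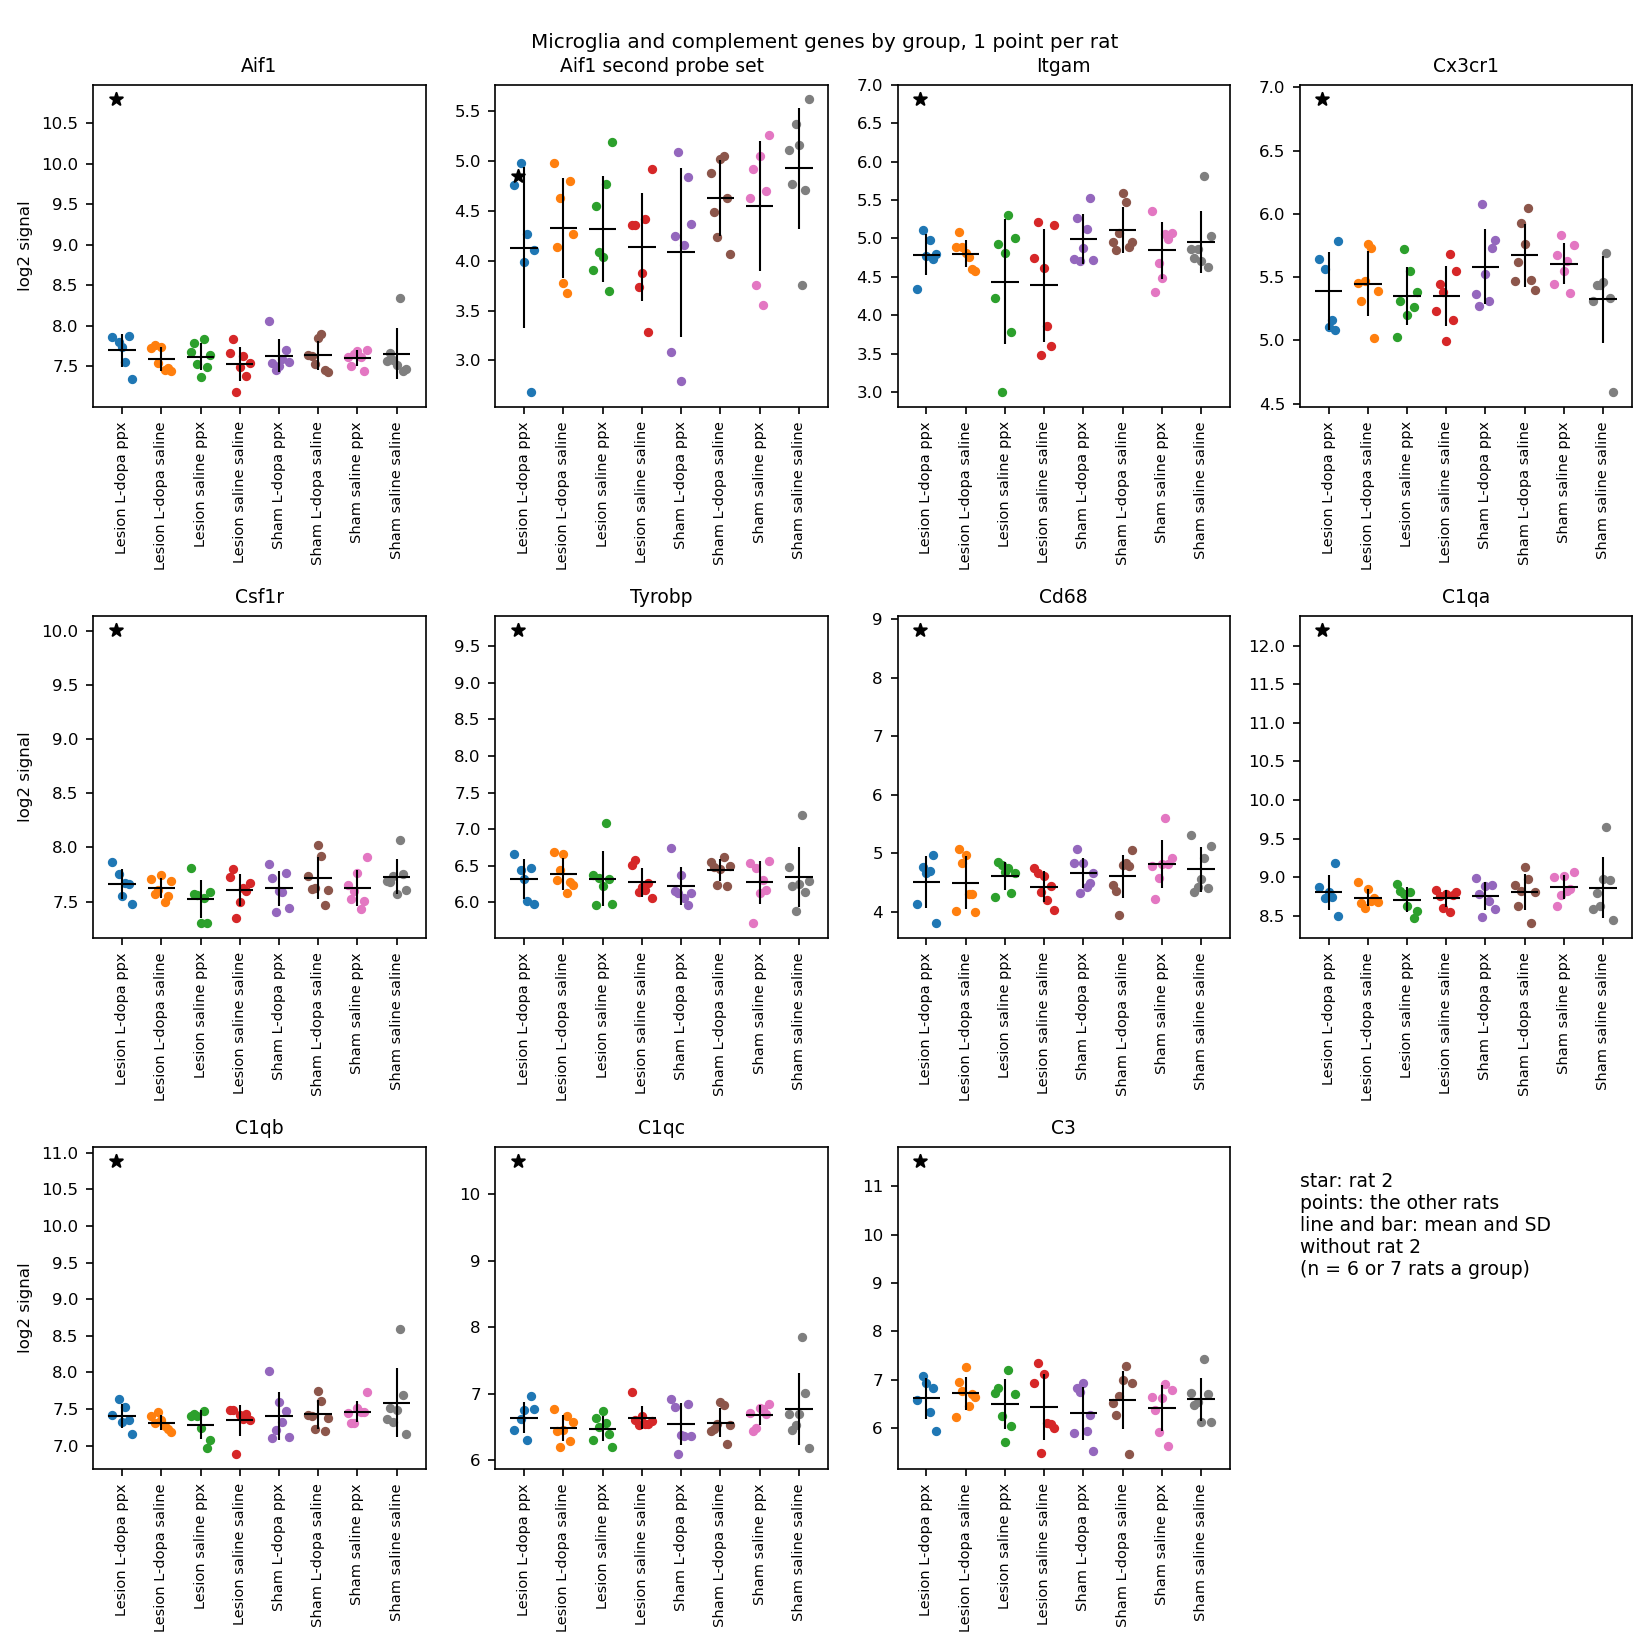
Log2 signal (vertical axis) of each of the 11 probe sets by group (horizontal axis), 1 point per rat, with rat 2 as a star and the mean and SD of the other rats as a line and bar. The star lies above every point in 10 panels and among the points in the panel of the second Aif1 probe set.

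C3, whose fragments the receptor of Itgam binds, was thus high in rat 2 together with Itgam, while the ligands of Cx3cr1 and Csf1r lay within 0.5 units of the group mean. Cx3cl1, the ligand of Cx3cr1, had a log2 signal of 8.87 in rat 2, which was 0.49 units below the mean of 9.36 ± 0.26 of the other 6 rats and the lowest of 56. Il34 was 0.34 units lower in rat 2 (7.18 against 7.52 ± 0.08), and Csf1 was 0.18 units higher (6.84 against 6.66 ± 0.20). Cd200, a neuronal protein that restrains microglia through Cd200r1, was 0.28 units lower in rat 2, and its receptor, at a signal below the filter, was 0.87 units higher. Cd47, which signals to phagocytes through Sirpa, was 0.11 units higher, and Sirpa, the receptor, was 0.40 units higher and the highest of 56.

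Itgb2, Trem2 and C3ar1, partners found on microglia themselves, were each highest of 56 in rat 2, C3ar1 narrowly (the next array was at 4.33). Itgb2, the beta chain that pairs with Itgam, was at 8.41 in rat 2, against a mean of 6.22 ± 0.19 (n = 6), a difference of 2.19 units. Trem2, the receptor that signals through Tyrobp, was 1.70 units higher (6.80 against 5.10 ± 0.28), and C3ar1, the receptor of a C3 fragment, was 1.05 units higher (4.38 against 3.33 ± 0.25). Trem2 and C3ar1 were below the filter.

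Of 21 other microglial genes with a probe set, 18 were more than 1 unit higher in rat 2 than in its group and rat 2 was the highest of 56 arrays in 20. Their median difference was 2.09 units. The largest were those of Cybb, the catalytic subunit of the phagocyte oxidase (3.92 units), Ly86, a partner of a Toll-like receptor homologue (3.78), and Cd37, a leukocyte tetraspanin (3.37, at very low signal in the other rats). Among genes named after their values were seen, P2ry12, a purine receptor, was 1.54 units higher, Tmem119 1.83, Sall1, a transcription factor, 1.26, Gpr34 0.82 and Mertk, a receptor kinase for the uptake of dead cells, 0.62. Olfml3 was 0.06 units higher in rat 2, which ranked 27 of 56.

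Of 25 other complement genes, 6 were more than 1 unit higher in rat 2, 1 was more than 1 unit lower, and the median difference was 0.61. Of these 25, 12 were above the filter, with a median difference of 0.058. The largest differences were those of Itgax (2.62 units higher), C5 (2.51 higher) and C6 (a difference of -2.12), all at signals below the filter and within or near the range of the other arrays. Among those above the filter, chosen after their values were seen, C1r, the protease that C1q activates, was 1.24 units higher in rat 2, and the inhibitor gene Serping1 was 0.99 higher. Clu (-0.02), Vtn (0.02), Masp1 (0.05) and Masp2 (-0.01) were flat. Of these 12, 1 was more than 1 unit higher in rat 2. Probe sets that the annotation assigns to several complement genes were not counted and are not named here, and 2 of them were 5.45 and 4.45 units higher in rat 2.

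Of 22 phagocyte activation genes, 10 were more than 1 unit higher in rat 2 and the median difference was 0.93. Of these 22, 12 were above the filter, with 3 more than 1 unit higher and a median difference of 0.73. Ccl2, a monocyte-attracting chemokine, was 3.60 units higher and Lgals3, a galectin of activated phagocytes, 2.92, both below the filter in mean signal. Ctsz, a lysosomal protease, was 2.91 units higher (9.18 against 6.27 ± 0.13). Others, named after their values were seen, did not follow: Apoe was 0.14 units higher, Lyz2 0.01 higher, and Lpl lower by 0.61 (a difference of -0.61).

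**Figure D2:**
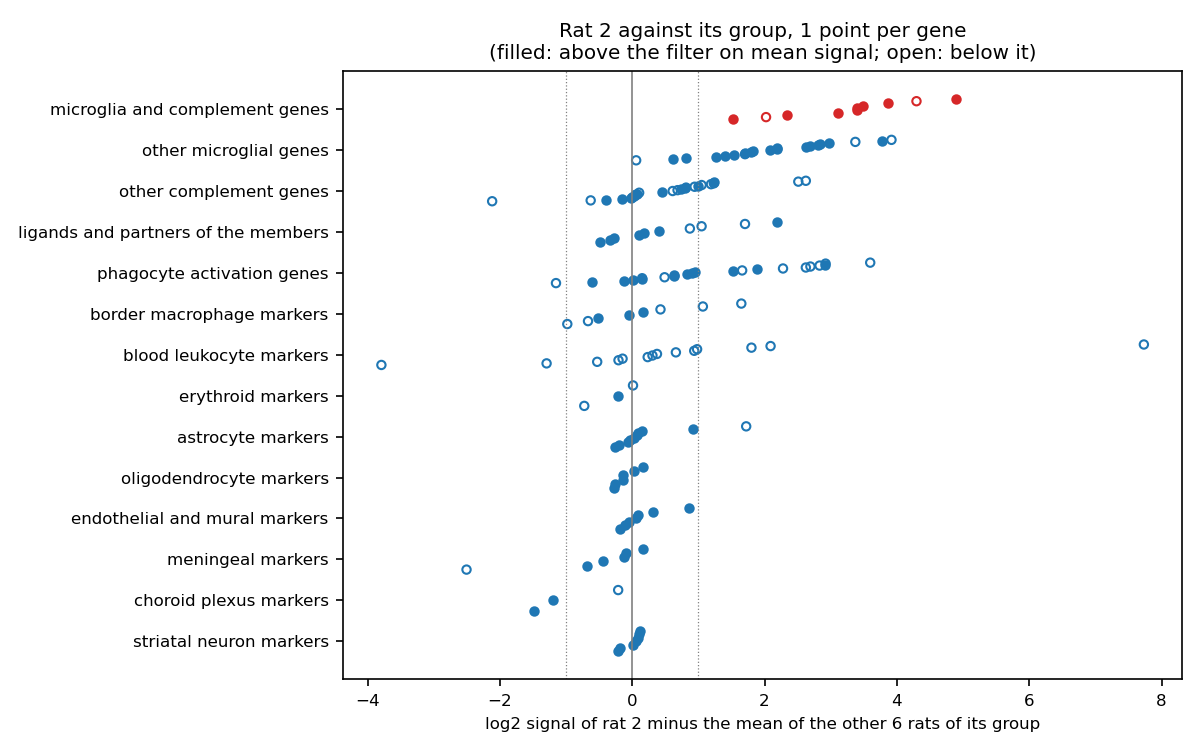
Difference between rat 2 and the mean of the other 6 rats of its group (horizontal axis, log2 signal), 1 point per gene, for the microglia and complement genes (red) and the companion lists; open points were below the filter. The 10 members and most other microglial genes lie to the right of 1, while oligodendrocyte and striatal neuron points lie within 0.3 units of 0 and, of the endothelial and mural points, Pecam1 lies at 0.85.

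Markers of other cells were read in the same way. Of 8 border macrophage markers, 2 were more than 1 unit higher in rat 2 and the median was 0.059; Ms4a7 was 1.65 higher, Clec10a 1.07 higher and F13a1 0.98 lower (-0.98). The mean signal of the 3 above the filter was 5.204 in rat 2, against 5.223 to 5.427 in the other 6 rats and 4.894 to 5.732 in all other 55 arrays, so rat 2 lay just below its group and within the range of all arrays. All 14 blood leukocyte markers were below the filter, 3 were more than 1 unit higher and 2 lower, and the median was 0.34. Plac8, a gene of granulocytes, monocytes and some lymphocytes, had a log2 signal of 11.75 in rat 2, against 3.00 to 7.67 in the other 55 arrays, the largest difference from the group of any list gene (7.73). Camp was 2.09 units higher, and Gzmb, at very low signal, was lower (-3.79). Others were named after their values were seen. Cd3d was 1.80 units higher and Cd2 was lower (-1.29), while S100a8 (0.37 higher) and Cd3e (0.23 higher) ranked 20 and 35 of 56. The part of blood leukocytes in the result was not tested.

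Erythroid markers were not raised in rat 2: Alas2 had a difference of -0.73, Hbb of -0.21 and Slc4a1 of 0.01. Of 10 astrocyte markers, 1 was more than 1 unit higher (Serpina3n, 1.72, below the filter). Gfap was 0.91 units higher in rat 2 (10.52 against 9.61 ± 0.28), which ranked 3 of 56. Vim was 0.27 units lower (-0.27), and the median of the list was 0.043. The mean signal of the 9 astrocyte markers above the filter was 10.14 in rat 2, against 9.88 to 10.28 in the other 6 rats. The median difference was -0.14 over 6 oligodendrocyte markers (Mog -0.28, Mag -0.26, Mbp 0.16) and 0.063 over 7 striatal neuron markers (Tac1 -0.21, Drd1 -0.18, Penk 0.11). Of 7 endothelial and mural markers, Pecam1 was 0.85 units higher and the highest of 56, Flt1 0.32 higher and Cldn5 0.18 lower (-0.18). Meningeal markers had a median of -0.28 (Slc6a13 -2.50, Col1a2 -0.68, Igf2 -0.44), and choroid plexus markers of -1.20 (Ttr -1.49, Folr1 -1.20, Kcnj13 -0.21).

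Outside these lists, and chosen after the values were seen, the largest positive differences in rat 2 were those of Cd74 and RT1-Da, genes of antigen presentation on MHC class II. Cd74 had a log2 signal of 12.73 in rat 2, against 5.04, 6.21 and 7.35 (lowest, median and highest) in the other 55 arrays. RT1-Da ranged between 5.23 and 7.12 in those 55. Cd74 was 6.51 units and RT1-Da 6.47 units above the group in rat 2, more than any member.

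A second array was high in the same genes, to a smaller extent. Rat 54 (Sham saline saline, no drug and no lesion) ranked second of 56 in 8 of the 11 member probe sets. The share of all tested probe sets that ranked first or second in rat 54 was not computed. More than 1 unit above its group were 3 of the 11. Among the 8 tested members there were 2, against 0.349% of all tested probe sets. C1qc was at 7.85 in rat 54, against 6.18 to 7.01 in the other 6 rats of its group (1.26 units above their mean of 6.59 ± 0.28), and C1qb at 8.59, against 7.16 to 7.69 (1.17 units above). Itgam was 1.01 units higher, Tyrobp 0.98, C3 0.97, C1qa 0.92, Aif1 0.80 in its first probe set and Csf1r 0.39. Cx3cr1 (0.43 higher, rank 14) and Cd68 (0.23 higher, rank 11) lay among the other arrays, and the second Aif1 probe set was lower than its group (-1.37, rank 48).

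The companion genes of rat 54 differed from those of rat 2 in part. Of 21 other microglial genes, 10 ranked first or second in rat 54, with a median difference of 0.25, and 3 were more than 1 unit above its group. Of 22 phagocyte activation genes, 9 were more than 1 unit above and 12 ranked first or second (median 0.60). Of 14 blood leukocyte markers, all below the filter, 7 were more than 1 unit above and 5 ranked first or second, with a median difference of 0.84. At such low signals differences carry more noise, and the share of all probe sets below the filter that did so was not computed. The median over the 10 members, 8 of them above the filter, was 0.94. The part of blood leukocytes in the signals of rat 54 was not tested. Gfap was 10.59 in rat 54, the highest of 56, and Plac8 was 7.67, second to rat 2 and 3.49 units above its group. Cd74 was 6.91 in rat 54 and ranked 7, within the range of the other arrays. The 3′ minus 5′ signal of rat 54 was 1.10, against 0.841 to 1.14 in the other 6 rats of the group. Since it is 1 of 7 undrugged sham rats, each comparison below was also read without rats 2 and 54.

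Without rat 2, the 8 groups differed little in any member. C1qa had group means between 8.71 in Lesion saline ppx and 8.88 in Sham saline ppx, a span of 0.17 units against a pooled SD of 0.22 within groups. Aif1 in its first probe set lay between 7.69 in Lesion L-dopa ppx and 7.53 in Lesion saline saline, Tyrobp between 6.22 and 6.44, and Csf1r between 7.52 and 7.73. C1qb (7.29 to 7.59) and C1qc (6.47 to 6.77) were lowest in Lesion saline ppx and highest in Sham saline saline, the group that holds rat 54. Over the 11 probe sets the span of the group means was between 0.76 and 1.52 pooled SDs, and was widest in Itgam. Neighbours in the order of groups were at most 0.74 SDs apart in any member, while the highest and lowest groups were more than 1 SD apart in 7 of the 11.

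C3 had the widest spread of the tested members: among the 55 arrays its signal was between 5.47 and 7.42, and every group covered more than 1 unit. Its group means, without rat 2, lay between 6.72 ± 0.33 in Lesion L-dopa saline and 6.31 ± 0.54 in Sham L-dopa ppx. Cx3cr1 lay between 5.67 ± 0.25 in Sham L-dopa saline and 5.32 ± 0.35 in Sham saline saline. Itgam, below the filter, lay between 4.39 ± 0.73 in Lesion saline saline and 5.11 ± 0.30 in Sham L-dopa saline, and its SD was 0.26 and 0.18 in the lesioned groups given L-dopa (without rat 2), against 0.81 and 0.73 in those given saline. Cd68 lay between 4.43 and 4.82.

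With rat 2, the Lesion L-dopa ppx group was the highest of the 8 in 7 of the 8 tested members, with SDs of 0.89 to 1.89 in those 7. C1qb averaged 7.90 ± 1.32 (n = 7) there with rat 2 and 7.40 ± 0.16 (n = 6) without it. C3 averaged 7.32 ± 1.89 with it and 6.62 ± 0.43 without it. This single array thus decided both the level and the spread of that group.

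Over all 56 rats, limma called 0 of the 8 tested members in lesioned against sham rats, where 5.07% of all tested probe sets were called. An unadjusted p under 0.05 was found in 19.7% of all tested probe sets and in 0 of the 8 members. Changes ran between -0.11 for Cx3cr1 and 0.26 for C3, with a median of 0.05, against -0.01 over all tested probe sets. Without rat 2, 4.74% of all probe sets were called, again with 0 members (1 of 8 at an unadjusted p under 0.05, against 19.6% of all). The median member change was then -0.07, with 6 of 8 lower in lesioned rats. Cx3cr1 had the lowest adjusted p of the 8: its change was -0.16 ± 0.07 (SE; adjusted p 0.18, limma). Without rats 2 and 54 the median was -0.04, with 0 members called.

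Itgam, below the filter and fitted with all probe sets, had a larger lesion difference than any of the 8. Its signals were 3.00, 4.77 and 5.30 in the 27 lesioned rats without rat 2 (lowest, median and highest), against 4.30, 4.92 and 5.81 in the 28 sham rats. The groups overlapped, and the lesioned rats reached lower. The change was -0.30 ± 0.14 with all rats (unadjusted p 0.042, adjusted p 0.27, limma), -0.37 ± 0.13 without rat 2 (unadjusted p 0.0053, adjusted p 0.099) and -0.34 ± 0.12 without rats 2 and 54 (adjusted p 0.14), so it was not called in any of these fits. In the fit without rat 2 that took the array set as a block, the change was -0.17 ± 0.30 (adjusted p 0.999). Within arrays 1 to 37, in rats given L-dopa, it was -0.01 ± 0.29 with rat 2 and -0.15 ± 0.25 without it. Without rat 2, Cd68 had a change of -0.19 ± 0.10 (adjusted p 0.31) and the second Aif1 probe set of -0.32 ± 0.17 (adjusted p 0.32).

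Of the companion lists, Csf1, Penk, Slc1a3 and Acta2 were called in the comparison of all lesioned and sham rats. Csf1, Penk and Acta2 were each 1 of 7 tested genes of their list, against 5.07% of all tested probe sets called. Csf1, in its brightest probe set, was lower in lesioned rats by 0.24 (a change of -0.24 ± 0.05, adjusted p 4.5e-04, limma), with signals of 6.10, 6.55 and 7.03 (lowest, median and highest of 27, without rat 2) against 6.30, 6.78 and 7.19 in 28 sham rats. The groups overlapped widely, and the 9 sham rats in arrays 1 to 37 had a median of 6.64. With the array set as a block the change was -0.14 ± 0.11 (adjusted p 0.998), and the other 2 Csf1 probe sets were not called. The microglial receptor gene Gpr34 was called without rat 2 (a change of -0.20 ± 0.06, adjusted p 0.036, limma, against -0.17 ± 0.06 and 0.11 with it). It was 1 of 17 other microglial genes tested, against 4.74% of all tested probe sets called without rat 2. With the block the change of Gpr34 was -0.19 ± 0.14 (adjusted p 0.998, limma). Penk rose by 0.11 ± 0.04 (adjusted p 0.049, limma) with all rats and was not called without rat 2 (adjusted p 0.065). Slc1a3 rose in 1 probe set by 0.26 ± 0.06 (adjusted p 0.0065, and 0.011 without rat 2, limma). Another Slc1a3 probe set, the one counted in the astrocyte list, was not called, nor was any of the 9 tested in that list. Acta2 changed by -0.23 ± 0.05 (adjusted p 0.0012, and 0.0015 without rat 2, limma). None of these 3 was called with the block, where the changes were 0.15 ± 0.08 for Penk, -0.03 ± 0.14 for Slc1a3 and -0.14 ± 0.11 for Acta2. Only the Sham L-dopa saline rats were in both sets, so SEs were larger with the block. A missing call there is therefore not read as the absence of a difference.

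In L-dopa against saline-treated rats, 0 of 8 members were called, against 0.215% of all probe sets, and 0 had an unadjusted p under 0.05 (10.9% of all). All 8 changes were positive with rat 2 (median 0.13, lowest adjusted p 0.47 for Cx3cr1), 5 of 8 without it (median 0.04) and 7 of 8 without rats 2 and 54 (median 0.06). Cx3cr1 had a change of 0.17 ± 0.09 with rat 2 and 0.12 ± 0.07 without it. In pramipexole against saline conditioning, 0 of 8 were called, against 0.0376% of all probe sets, and 0 had an unadjusted p under 0.05 (5.08% of all). The median change was 0.09 with 8 of 8 higher, -0.03 with 3 of 8 higher without rat 2, and 0.01 with 5 of 8 higher without rats 2 and 54. Of all the lists, the erythroid gene Hbb alone was called for pramipexole (-0.51 ± 0.08, adjusted p 0.0013, limma), and it was called with the array set as a block too (-0.54 ± 0.10, adjusted p 0.0083).

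The 4 comparisons among single groups that hold the Lesion L-dopa ppx rats moved most with rat 2. Pramipexole in lesioned rats given L-dopa had a median member change of 0.55, with 5 of 8 at an unadjusted p under 0.05, against 5.89% of all probe sets. Limma called 0 members there, against 0.0161% of all probe sets. Without rat 2 the median was 0.05, with 0 of 8 at an unadjusted p under 0.05 (4.83% of all). L-dopa in lesioned pramipexole-conditioned rats had a median of 0.55 (5 of 8 at an unadjusted p under 0.05 against 5.14% of all, 0 called, 0% of all probe sets called). Without rat 2 it was 0.10 (0 of 8 against 4.19%). The lesion in rats given both drugs had a median of 0.52 (6 of 8 at that p against 6.83% of all, 0 called, 0% of all called), and 0.06 without rat 2 (0 of 8 against 5.01%). The interaction of the drugs in lesioned rats had a median of 0.50 (1 of 8 against 7.01%, 0 called, 0% of all called), and 0.05 without rat 2 (0 of 8 against 6.74%). These comparisons share the Lesion L-dopa ppx rats and are not separate evidence.

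The other single-group comparisons did not hold rat 2 except in the estimate of the spread, and 0 of 8 members were called by limma in each. L-dopa in lesioned saline-conditioned rats had a median member change of 0.04 (0.0161% of all probe sets called), in sham pramipexole-conditioned rats of -0.05 (0.166%, and 0.172% without rat 2) and in sham saline-conditioned rats of -0.02 (0.00537%), which was 0.08 without rats 2 and 54. Pramipexole had a median of -0.01 in lesioned rats without L-dopa (0%, and 0.00537% without rat 2), of -0.07 in sham rats given L-dopa (0.043%, and 0.0483% without rat 2) and of -0.09 in sham rats without it (0%), which was 0.06 without rats 2 and 54. The lesion in rats given neither drug had a median of -0.13 (1.07%, and 1.15% without rat 2), and of -0.01 without rats 2 and 54. At an unadjusted p under 0.05 there was 1 of 8 for L-dopa in sham saline-conditioned rats (7.83% of all probe sets), and 0 of 8 in the others with all rats (5.99% to 13.7% of all).

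Within arrays 1 to 37, L-dopa was compared with saline in lesioned rats (14 against 14). With rat 2 all 8 members had a positive change, with a median of 0.29, and 0 were called, against 0.0215% of all probe sets. None had an unadjusted p under 0.05, against 10.1% of all probe sets. Without rat 2 the changes ran between 0.01 for C1qc and 0.20 for C3, with a median of 0.06, and 0 were called against 0.0161%. C1qa had a change of 0.05 ± 0.06 (95% interval -0.08 to 0.18), C1qb of 0.04 ± 0.08 (-0.12 to 0.20) and Csf1r of 0.08 ± 0.06 (-0.04 to 0.19). These intervals leave room for changes of up to about 0.2 units in those genes, while that of C3 ran from -0.18 to 0.58. Itgam, fitted with no filter, had a change of 0.53 ± 0.23 (adjusted p 0.57) with rat 2 and of 0.38 ± 0.20 (adjusted p 0.67) without it.

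Pramipexole was compared with saline in the same lesioned rats (14 against 14), with 0 members called and 0% of all probe sets called. At an unadjusted p under 0.05 there were 0 members (6.26% of all probe sets). The median change was 0.26 with rat 2, all 8 positive, and -0.01 without it, 3 of 8 positive. Without rat 2, Aif1 had the largest change (0.09 ± 0.07, 95% interval -0.05 to 0.24), and C1qa had a change of 0.02 ± 0.06 (-0.10 to 0.15). In sham rats given L-dopa in that set, pramipexole (7 rats) was set against saline (2 rats): 0 of 8 were called, 0% of all, 0 at an unadjusted p under 0.05 (3.41% of all), and Tyrobp had the largest change (-0.30 ± 0.48). The lesion in rats given L-dopa in that set (14 against 9) gave 0 of 8 called, 0% of all and 0 at an unadjusted p under 0.05 (5.82% of all). Its median was 0.23 with rat 2 and 0.0028 without it.

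Within arrays 38 to 56, which hold only sham rats, L-dopa (5 rats) was set against saline (7 rats) under saline conditioning. No member was called (0 of 8, 0% of all probe sets). An unadjusted p under 0.05 was found in 6.17% of all probe sets and in 1 of the 8 members. That was Cx3cr1, with signals of 5.40, 5.76 and 6.05 in the L-dopa rats (lowest, median and highest), against 4.59, 5.44 and 5.69 in the saline rats. The groups overlapped, and the change was 0.40 ± 0.15 (95% interval 0.09 to 0.71; adjusted p 0.72, limma). The median over the members was -0.01, and 0.09 without rat 54, when all 8 changes were positive. Pramipexole against saline in sham rats without L-dopa (7 against 7) gave 0 of 8 called, 0% of all and 0 at an unadjusted p under 0.05 (6.22% of all). Its median was -0.09 with rat 54 and 0.06 without it, and Cx3cr1 again had the largest change (0.28 ± 0.14, adjusted p 0.80). The saline group of both comparisons is the same 7 rats, among them rat 56, whose Cx3cr1 signal of 4.59 was the lowest of all arrays.

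**Figure D3:**
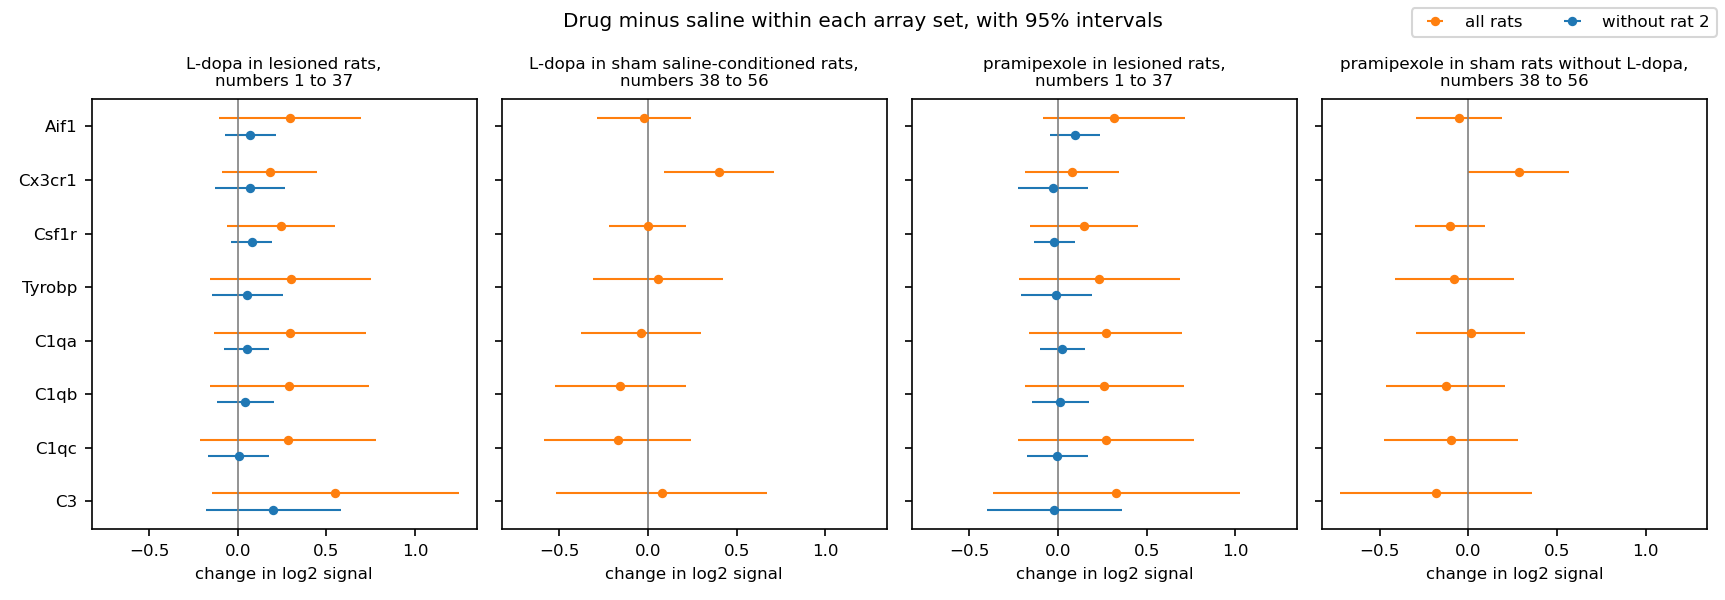
Change in log2 signal (horizontal axis, drug minus saline, with 95% intervals) of the 8 tested members within arrays 1 to 37 and arrays 38 to 56, with all rats (orange) and without rat 2 (blue). Without rat 2 the lesioned-rat changes lie between -0.03 and 0.20, and every interval holds 0; rat 2 is not in the second set, where the interval of Cx3cr1 under L-dopa lies above 0.

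The members varied together across rats even without the outlying array. After subtraction of the mean of each group within its array set, the 28 pairs among the 8 tested members had a median Pearson correlation of 0.50 over 55 arrays, all positive. The closest pairs were C1qa with C1qb (0.79), C1qa with C1qc (0.76), Aif1 with C1qb (0.76) and Aif1 with Csf1r (0.75). Cx3cr1 stood aside, with correlations of 0.09 to 0.20 with the other 7. The arrays share a tissue, a dissection and a chip, and the correlations are a description with no test. With rat 2 the median was 0.87, and without rats 2 and 54 it was 0.40, with the pairs between -0.05 and 0.72 and 27 of 28 positive.

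**Figure D4:**
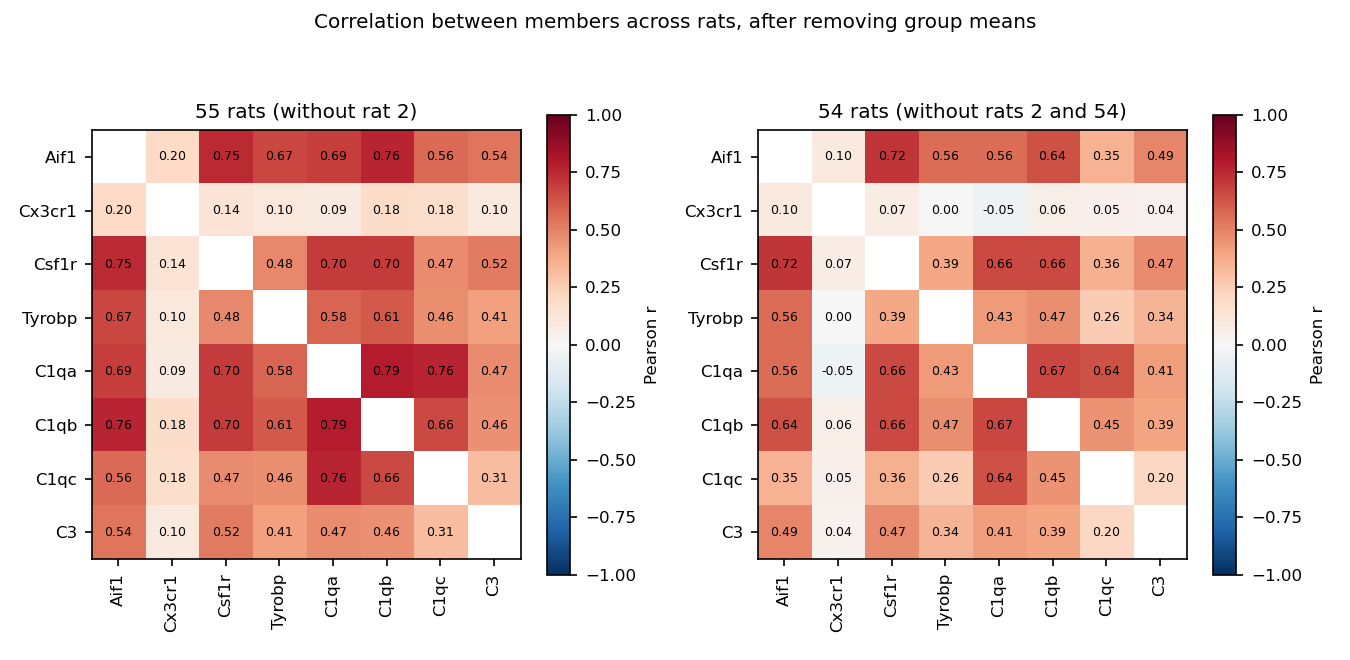
Pearson correlations between the 8 tested members over rats after removal of the group means, without rat 2 (left) and without rats 2 and 54 (right). C1qa with C1qb is the darkest pair on the left (0.79), and Aif1 with Csf1r on the right (0.72). The row of Cx3cr1 is pale in both panels.

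Genes whose signals most resembled the mean of the 8 members over the same 55 arrays were Fcer1g (r = 0.82), Arpc1b (0.78), Rnaset2 (0.77), Tspo (0.74), Anxa3 (0.73), Lgmn (0.73), Gmfg (0.73), B2m (0.72), Plek (0.72) and RT1-DMa (0.70). Over all tested probe sets the median correlation was 0.015, and 1.01% exceeded 0.5. Fcer1g encodes an adapter of Fc receptors, Tspo an outer mitochondrial membrane protein used as an imaging target of glial reaction, and Lgmn a lysosomal protease. Without rat 54 as well, Fcer1g had a correlation of 0.77, B2m of 0.75, Rnaset2 of 0.70 and RT1-DMa of 0.45. In rat 2, which the ranking did not use, all 10 were the highest of 56 arrays, by between 0.94 and 2.99 units over the group.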

How the data were processed

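Total RNA (100 ng) of each rat was labelled for Affymetrix rat arrays. The deposited values are log2 signals that the authors made with MAS5, per the submitters' processing notes; its version, scaling and build are not given in the sources used here. Unlogged, every array had a trimmed mean (2% off each end) of 149.999, so arrays had been scaled alike. Detection calls were not used.

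Values were taken as deposited. Probe sets above the 40th percentile of mean signal (4.99), without 57 controls, were fitted to the 8 group means (limma 3.58.1, R 4.3.3, lmFit and eBayes, two-sided) with calls where the p adjusted by Benjamini-Hochberg over all tested was under 0.05. Comparisons within arrays 1 to 37 and 38 to 56 used only those arrays. On values simulated for the L-dopa comparison of all 56 rats, 99 of 100 changes of 0.5, 100 of 100 of 1 and 5 of 18425 unchanged probe sets were called. The simulated noise was independent and normal, with no outlying array and no array sets. These counts check the fit and do not give the chance of a call for the members or in comparisons of fewer rats. Titles do not number rats across groups, so none were paired. Nothing states separate litters or cages.

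Members and gene lists were chosen with earlier results of these data known. All members were named, and of each companion list the genes called, the 3 that differed most in rat 2, all ligands and partners, and the 10 genes most correlated with the family. Promoters came from RefSeq (GRCr8); Python 3.11.15 and pandas 2.3.3 made the summaries. Alternatives were no filter, a 60th percentile filter, quantile normalization, an intensity trend with robust prior, array weights, a 3′ minus 5′ covariate, 16 added to the signal, fewer groups, the array set as a block and leaving out each rat. Leaving out rats 2 and 54 together, with or without the filter, and rat 2 with no filter, with the block or with both, were chosen after seeing the data.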

Additional observations from a re-analysis of the deposited data

Results flagged for a closer look

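Each of the 11 probe sets was examined in each of the 8 groups of 7 rats for a rat far from the others, by the gap to its nearest neighbour divided by the range of the group. The gap exceeded the critical share of 0.568 in 20 of 88 groups. That share is one that chance exceeds in about 1 in 20 groups of independent values. The 88 groups are not independent, because the probe sets were measured in the same rats and the members varied together. The rat with the most flags had also been singled out with earlier results known. The count of 20 is therefore given as a description and is not compared with chance.

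Rat 2 (Lesion L-dopa ppx) was the highest in 10 of the 20. Its gap was 0.875 of the range for C1qb, 0.848 for Csf1r, 0.845 for the first Aif1 probe set, 0.843 for C1qc, 0.818 for Tyrobp and 0.815 for C1qa. It was 0.795 for C3, 0.769 for Cd68, 0.688 for Itgam and 0.616 for Cx3cr1.

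Rat 54 (Sham saline saline) was the highest in 4 groups, with a gap of 0.749 of the range for the first Aif1 probe set, 0.663 for Itgam, 0.631 for C1qb and 0.631 for Csf1r. In the same group, rat 56 was the lowest for Cx3cr1 (0.653).

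Among the other groups, rat 29 (Sham L-dopa ppx) was the highest for the first Aif1 probe set (0.589, signal 8.06), and rat 19 (Lesion saline ppx) for Tyrobp (0.628, signal 7.08). In Lesion saline saline, rat 22 was the highest for C1qc (0.732, signal 7.02) and rat 24 the lowest for C1qb (0.762, signal 6.89). Rat 6 (Lesion L-dopa ppx) was the lowest for the second Aif1 probe set (0.570, signal 2.68, below the filter).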

How the results depend on the processing

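No member was called by limma in any of the 20 comparisons, with all rats or under any of 1220 alternative fits, among them leaving out each rat in turn. The lowest adjusted p was 0.47 with all rats and, over the alternatives, 0.099 for Itgam in lesioned against sham rats without rat 2 and with no filter. Among the members above the filter it was 0.18, for Cx3cr1 in the same comparison without rat 2. Directions were less stable. Of 56 member values in the comparisons of all rats and within the first array set, 20 had another sign without rat 2. Among the 56, those for pramipexole in sham rats given L-dopa could not change, because rat 2 entered only their estimate of the spread. The comparisons among single groups were not in this count. Leaving out single rats moved the median member change between 0.05 and 0.68 for pramipexole in lesioned rats given L-dopa, between 0.10 and 0.68 for L-dopa in lesioned pramipexole-conditioned rats, and between 0.06 and 0.65 for the lesion in rats given both drugs; the lowest value in each was that without rat 2. The differences between rat 2 and its group kept their size under quantile normalization. With 16 added to the unlogged signal, those of Itgam (1.55) and Cd68 (3.57) moved by more than the SD of the other 6 rats. No paired analysis was possible because the titles give each rat a number of its own that is not shared between groups. The signals of Itgam, Cd68 and the second Aif1 probe set, under the filter, limit what can be said of them. The lesion comparison without L-dopa cannot be told apart from the array set, and that of all 56 rats cannot be fully told apart from it.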
